A study of Mus musculus with 12 samples.

Results

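Intermediate-density CpG sites are those with 6 to 11 CpG sites, the site itself included, in a window that reaches 100 bp to each side. They were counted on the autosomes of the mouse genome (mm10, the GRCm38 assembly) from the positions of the deposited table, which lists every CpG site. By this rule 3172256 sites were members, 15.6% of 20383623 autosomal CpG sites and 14.5% of 21867550 CpG sites in all. Sites with 12 or more CpG sites in the same window are called dense here (1449467 sites), and those with 1 to 5 are called sparse (15761900 sites). The members were divided by the distance to the nearest dense site into 800334 sites under 500 bp away (25.2%), 323932 sites at 500 to 2000 bp (10.2%) and 2047990 sites over 2000 bp away (64.6%). The median distances were 81, 1077 and 16052 bp.

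The study asked which CpG sites human DNMT3A and DNMT3B methylate in cells and how mutations in DNMT3B alter this. Its host was a mouse embryonic stem (ES) cell line that lacks Dnmt1, Dnmt3a and Dnmt3b (triple knockout, TKO), so that every line carried the same 3 deletions, which bisulfite reads do not check. The lines received isoform 1 of DNMT3A, or Flag-tagged isoform 1 of DNMT3B as wild type (WT), N656I, K777A or N779A, from the pPyCAGIZ vector, and were selected in 50 µg/mL and kept in 25 µg/mL Zeocin. Each of 6 groups had 2 independently derived lines, and WT DNMT3B was profiled as set a (compared with DNMT3A WT and N656I) and as set b (compared with K777A and N779A). Both comparisons with set a share these WT lines, and so do both comparisons with set b. No line with the empty vector was analysed here, so the level that would be read without an added enzyme is not given. The amount of enzyme in a line was not analysed either, and differences in amount and in activity cannot be told apart.

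DNMT3A and DNMT3B are the enzymes that place new methyl groups on cytosine, whereas DNMT1 copies existing marks to the new strand after replication. In mammals most CpG sites are methylated, and the main exceptions are CpG islands, short stretches rich in CpG that often hold promoters. The flanks of islands are called shores, and their methylation is known to vary between tissues. Stretches of moderate CpG density occur both as such flanks and on their own, for instance in exons and in young repeats.

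6 windows show what the members look like. They are the 2 sites of each distance class with at least 10 reads in the most lines, chosen by a rule that left out repeats and windows overlapping annotated UTRs. Each is given on the forward strand of GRCm38, 5′ to 3′, with its CG dinucleotides in capitals and the member itself in the middle.

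Under 500 bp, site 1, chr12:20233317-20233517: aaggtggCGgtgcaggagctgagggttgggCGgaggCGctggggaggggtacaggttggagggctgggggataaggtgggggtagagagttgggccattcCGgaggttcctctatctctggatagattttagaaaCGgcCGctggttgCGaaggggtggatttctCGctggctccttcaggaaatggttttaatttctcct
Under 500 bp, site 2, chr4:45399410-45399610: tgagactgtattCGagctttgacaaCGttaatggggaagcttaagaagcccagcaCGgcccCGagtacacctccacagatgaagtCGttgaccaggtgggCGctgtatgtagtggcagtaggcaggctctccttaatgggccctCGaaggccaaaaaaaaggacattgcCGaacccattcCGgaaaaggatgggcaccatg
500 to 2000 bp, site 1, chr12:112663777-112663977: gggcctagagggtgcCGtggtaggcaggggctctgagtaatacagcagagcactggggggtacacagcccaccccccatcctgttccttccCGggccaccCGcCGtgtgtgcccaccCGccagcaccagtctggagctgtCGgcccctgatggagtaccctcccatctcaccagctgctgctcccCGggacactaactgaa
500 to 2000 bp, site 2, chr2:32618223-32618423: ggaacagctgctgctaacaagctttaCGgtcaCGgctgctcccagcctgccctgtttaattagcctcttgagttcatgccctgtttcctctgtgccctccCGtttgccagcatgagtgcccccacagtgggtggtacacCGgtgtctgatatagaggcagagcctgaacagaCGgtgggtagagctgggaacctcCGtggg
Over 2000 bp, site 1, chr8:13245279-13245479: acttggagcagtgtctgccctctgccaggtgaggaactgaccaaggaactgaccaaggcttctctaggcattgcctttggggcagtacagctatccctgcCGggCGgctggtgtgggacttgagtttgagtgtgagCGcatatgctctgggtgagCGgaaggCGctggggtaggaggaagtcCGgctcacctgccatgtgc
Over 2000 bp, site 2, chr8:61476635-61476835: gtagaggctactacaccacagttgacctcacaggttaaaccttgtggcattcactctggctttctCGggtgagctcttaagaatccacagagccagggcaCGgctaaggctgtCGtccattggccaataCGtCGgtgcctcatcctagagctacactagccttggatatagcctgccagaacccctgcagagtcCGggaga

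In this order the windows hold 8, 9, 7, 6, 6 and 6 CpG sites. Site 1 under 500 bp was intergenic and 438 bp from a dense site, and site 2 lay in an exon of Slc25a51, a mitochondrial carrier gene, 171 bp from a dense site. The sites at 500 to 2000 bp lay in introns of Akt1, which encodes a kinase of growth factor signalling (1831 bp from a dense site), and of St6galnac6, a sialyltransferase gene (1070 bp). The sites over 2000 bp lay in an intron of Adprhl1 (3190 bp from a dense site) and between genes, with Cbr4 as the nearest gene (11147 bp from a dense site). In site 2 of Slc25a51, 6 of 11 reads (54.5%, 95% Wilson interval 28.0 to 78.7) and 5 of 13 reads (38.5%, 17.7 to 64.5) were methylated in the DNMT3A WT lines. The DNMT3B WT set a lines had 0 of 11 (up to 25.9%) and 0 of 18 reads (up to 17.6%) methylated there. Single sites need not follow the average of their class, and in Adprhl1 both DNMT3A WT lines were low, with 1 of 15 (6.67%, 1.19 to 29.8) and 1 of 13 reads (7.69%, 1.37 to 33.3). With at most 20 reads a line, a single site separates only large differences, and the results below rest on averages over many sites. The intervals cover counting error only, since the reads carry no molecular identifiers.

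Methylation was measured by enhanced reduced representation bisulfite sequencing (eRRBS), in which DNA is cut with MspI, BfaI and MseI and bisulfite converts unmethylated cytosines. The deposited counts give the methylated reads and all reads at each site. For each line, the percentage of methylated reads was taken at every site read at least 10 times, and its average is called the level. A level does not tell methylation in few cells from a low level in many. The members had 2358510 to 5495005 reads a line, and 12558 (K777A replicate 1) to 121830 sites (N656I replicate 1) reached 10 reads. In all, 2233780 members (70.4%) had a read in some line, 485444 (15.3%) had 10 reads in some line, and 99 had 10 reads in all 12 lines, so that the lines were largely measured on different sites. Near members made up 26.0% to 41.6% of the sites with 10 reads in a line, the highest share being that of K777A replicate 1. DNMT3B WT set a replicate 2 stood apart from the rest: its reads fell on 149653 members, at 15.8 reads per covered site, and only 9.23% of its sites with 10 reads were partly methylated, against 20.5% to 63.3% in the other lines.

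Intermediate-density sites were most methylated in the DNMT3A WT lines and least in the K777A lines. The levels were 30.7% and 32.4% in DNMT3A WT, 14.6% and 13.9% in DNMT3B WT set a, and 12.96% and 9.70% in N656I. They were 13.2% and 11.7% in DNMT3B WT set b, 4.68% and 6.46% in K777A and 10.3% and 10.6% in N779A. The DNMT3A lines lay well above all others, whereas N656I replicate 1 lay among the lines of WT set b. Among the groups in this order, N656I and N779A differ by less than the spread of the N656I lines.

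In every line the members lay between dense and sparse sites. Dense sites were methylated to 0.841% to 2.78% in the 12 lines, and the members exceeded them by 12.7 percentage points on average (12 of 12 lines, exact sign-flip test over lines, two-sided, p = 0.000488, the lowest value possible with 12 lines). Sparse sites were methylated to 7.53% to 41.2%, and the members lay 4.15 percentage points below them (12 of 12 lines, exact sign-flip test, p = 0.000488). At the edges of the class the level changed without a jump, and the median line had 15.3% at 5 CpG sites per window, 14.4% at 6, 6.82% at 11 and 5.78% at 12.

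Methylation depended on the distance to the nearest dense site. Members under 500 bp from one were methylated to 13.5% and 14.8% in DNMT3A WT, 7.12% and 7.32% in DNMT3B WT set a, and 6.04% and 4.61% in N656I. They were methylated to 6.69% and 6.30% in DNMT3B WT set b, 2.60% and 3.17% in K777A and 6.12% and 5.14% in N779A. Between the DNMT3A lines at the top and the K777A lines at the bottom, the other 8 lines lay between 4.61% and 7.32%.

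Members over 2000 bp away were methylated to 39.2% and 39.9% in DNMT3A WT, 18.01% and 16.6% in DNMT3B WT set a, and 16.1% and 12.04% in N656I. They were methylated to 15.9% and 14.1% in DNMT3B WT set b, 6.44% and 8.11% in K777A and 12.1% and 13.5% in N779A. Each line was thus higher far from dense sites than near them. The difference was 3.84 to 25.7 percentage points a line with a mean of 10.7 (12 of 12 lines, exact sign-flip test, p = 0.000488), and the far level was 1.98 to 2.90 times the near level.

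Members at 500 to 2000 bp were intermediate in every line, at 4.95% to 32.2%. They exceeded the near members by 7.33 percentage points on average and lay 3.39 below the far members (each in 12 of 12 lines, exact sign-flip test, p = 0.000488). Far members reached 85.5% to 101% of the level of sparse sites in the same line, with a median of 96.1%. Near members remained 2.53 to 6.35 times above dense sites.

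**Figure D1:**
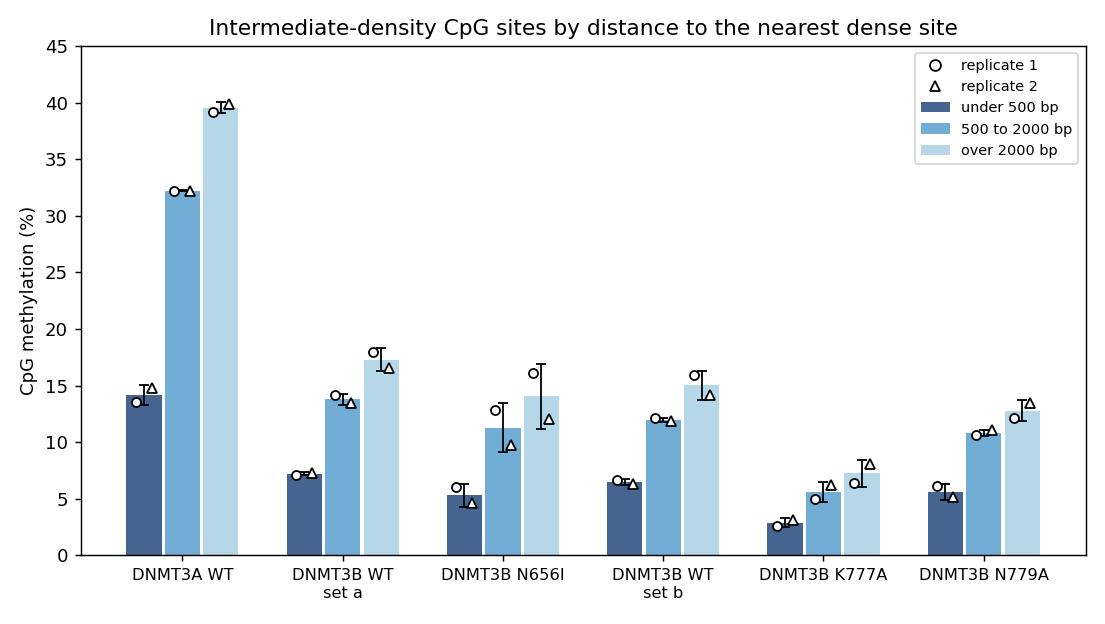
CpG methylation (%, y axis) of intermediate-density sites in the 6 groups (x axis), by distance to the nearest dense site. Bars are means of 2 lines, error bars their SD, and white symbols the single lines. In each group the bars rise from under 500 bp to over 2000 bp, from 14.1% to 39.5% in DNMT3A WT and from 2.88% to 7.27% in K777A.

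The same order was seen in the distribution over single sites. In DNMT3A WT replicate 1, 63.0% of the near sites with 10 reads had no methylated read, compared with 28.0% of those at 500 to 2000 bp and 19.1% of the far sites, and in replicate 2 these shares were 69.7%, 42.3% and 31.9%. Sites methylated to at least 50% made up 11.1% of the near and 39.5% of the far sites in that line, and 14.0% and 40.2% in replicate 2. In the K777A lines such sites were rare in both classes, at 0.192% and 0.743% near and 1.18% and 2.64% far. Across all members, fully methylated sites made up 0% and 0.0157% of the sites in the K777A lines and 5.33% and 1.37% in WT set b.

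In finer steps, the level was low up to about 500 bp and rose over the next 1000 bp. Under 300 bp the median line had between 5.62% and 6.81% in each bin. It had 6.40% at 300 to 499 bp, 8.26% at 500 to 749 bp, 11.9% at 750 to 999 bp and 14.2% at 1000 to 1499 bp. Beyond that, the medians of the bins lay between 13.7% and 15.5%.

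Of 14 steps between neighbouring bins, those at 300, 500 and 750 bp rose in 12 of 12 lines (exact sign-flip test, p = 0.000488, 0.00137 adjusted over the 14 steps). The step at 1000 bp rose in 10 of 12 lines (exact sign-flip test, adjusted p = 0.00977). At 1500 bp the step went up in 8 of 12 lines and did not pass the test (exact sign-flip test, adjusted p = 0.413). Relative to members over 50000 bp from any dense site, the median line had 41.4% of that level at 300 to 499 bp, 57.3% at 500 to 749 bp, 79.0% at 750 to 999 bp and 86.5% at 1000 to 1499 bp. A small rise at 50 to 99 bp (12 of 12 lines) and a fall at 100 to 199 bp (0 of 12 lines higher) also passed (both adjusted p = 0.00137, exact sign-flip test). Farther out, small rises passed just beyond 2000 bp (10 of 12 lines, adjusted p = 0.0231) and at 10000 bp (11 of 12 lines, adjusted p = 0.00228, exact sign-flip test).

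**Figure D2:**
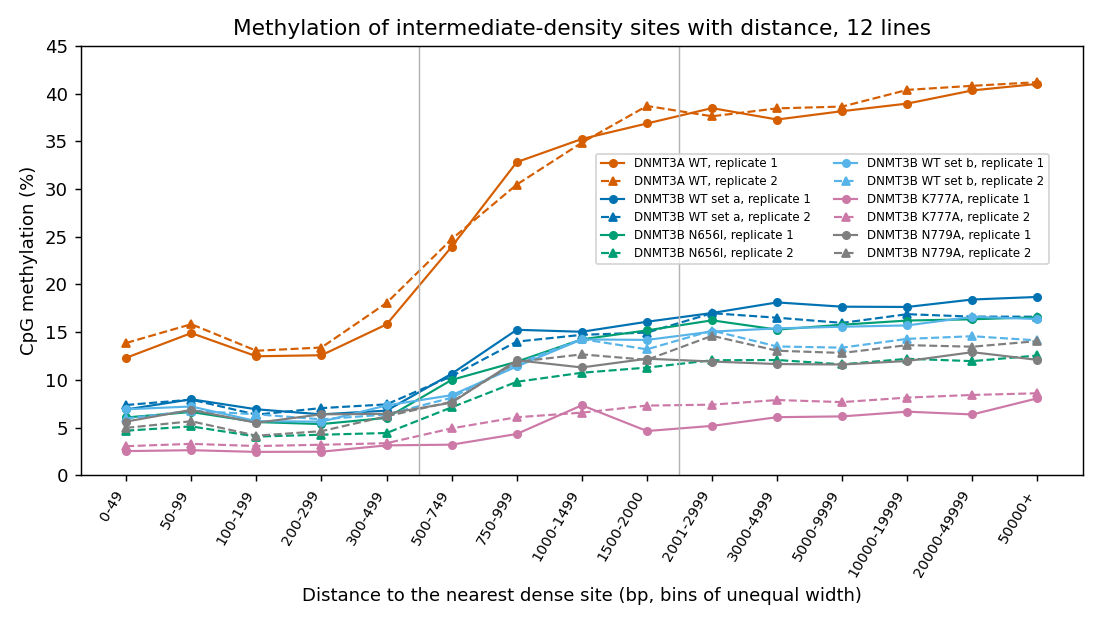
CpG methylation (%, y axis) of intermediate-density sites in bins of distance to the nearest dense site (bp, x axis, bins of unequal width) in the 12 lines, with grey lines at the limits of the 3 distance classes. The levels are low in the first 5 bins, rise between 500 and 1500 bp, and change little beyond, with both DNMT3A WT lines on top and both K777A lines at the bottom.

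Distance and local density are linked among the members, since 20.9% of the near but 1.60% of the far members had 11 CpG sites in the window. The difference with distance was therefore taken at each density. At 6 CpG sites per window, far members were methylated 2.45 times as much as near members in the median line, and at 11 CpG sites 2.12 times as much. At each of the 6 densities far exceeded near in 12 of 12 lines (exact sign-flip test, p = 0.000488 each, 0.000724 adjusted over 43 contrasts within lines). Read the other way, sites with 6 CpGs were methylated 2.21 times as much as sites with 11 over all members, but only 1.16 times among near and 1.32 times among far members (medians, higher in 12 of 12 lines each). At 500 to 2000 bp this ratio was 1.31, with 9 of 12 lines in this direction (exact sign-flip test, adjusted p = 0.0177), on 45 sites in the thinnest line.

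**Figure D3:**
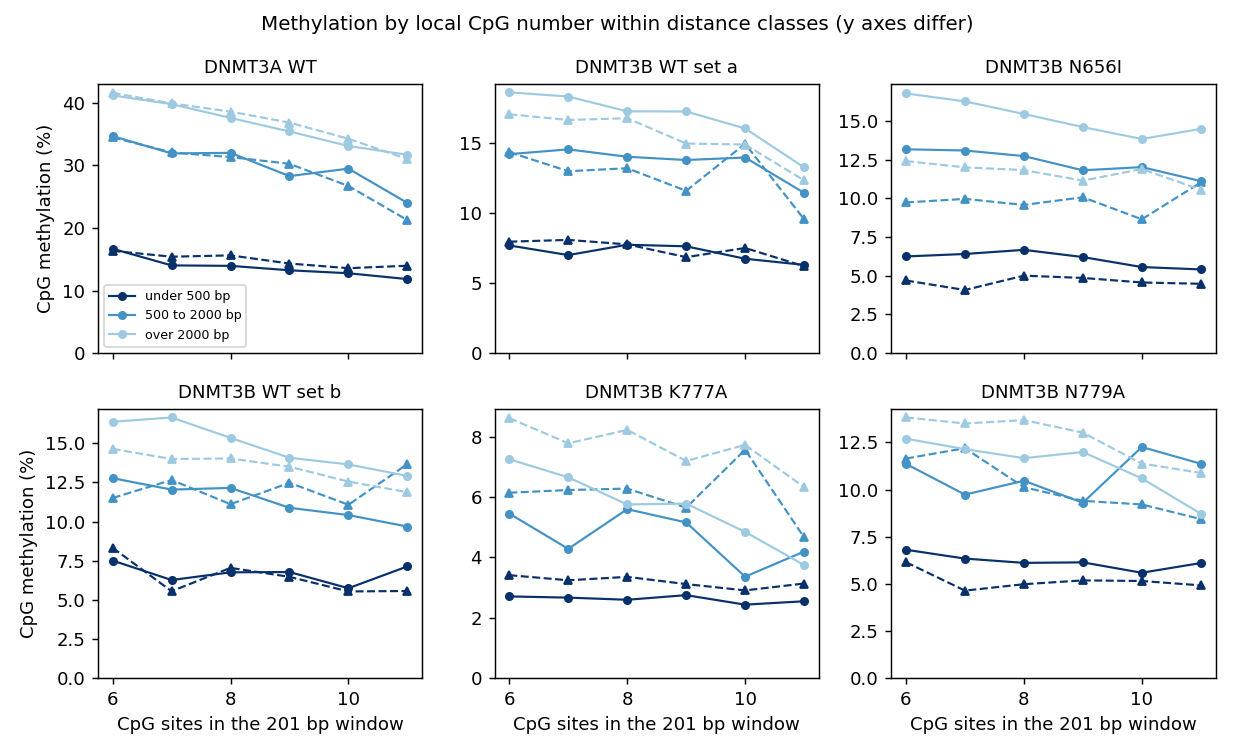
CpG methylation (%, y axes, which differ between panels) by the number of CpG sites in the window (x axes) for the 3 distance classes, 1 panel per group, with circles and solid lines for replicate 1 and triangles and dashed lines for replicate 2. The curves of near members lie below those of the other classes at each density, and the ratio of 6 to 11 CpG sites among them is 1.16 in the median line and at most 1.496.

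Near, middle and far members also differed in what they contain. Mean GC content of the window was 54.9%, 52.6% and 51.2%, and 24.7%, 6.79% and 1.45% lay within 1000 bp of the start of a protein-coding gene (GENCODE). Repeats, soft-masked in the assembly, held 36.2%, 31.6% and 22.8%, and CCGG, the site of MspI, was the context of 11.1%, 9.19% and 7.88%. Exons held 14.5%, 20.2% and 14.8%. The part of base composition in the difference with distance was not tested.

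Near dense sites, promoters were the least methylated surroundings. Near members in promoters were methylated to 1.05% to 3.73% in the 12 lines, and those between genes to 3.02% to 21.99%, so that the promoter level was 0.112 to 0.364 of the intergenic level (lower in 12 of 12 lines, exact sign-flip test, adjusted p = 0.000724). Far members were 2.54 times as methylated as near ones over all members in the median line. Within annotations they exceeded near ones by 1.495 times between genes, 2.16 times in introns and 1.68 times in exons, and in promoters by 5.88 times (medians, each in 12 of 12 lines, exact sign-flip test, adjusted p = 0.000724).

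Exons carried more methylation than intergenic DNA far from dense sites. Among far members the exon level was 7.03% to 41.1% and 1.27 times the intergenic level in the median line (12 of 12 lines), and the intron level was 1.13 times the intergenic level (12 of 12 lines, both exact sign-flip test, adjusted p = 0.000724). Among near members the exon level was above the intergenic level in 10 of 12 lines, with ratios from 0.905 to 1.60 and a median of 1.16 (exact sign-flip test, adjusted p = 0.00960), and introns lay below intergenic sites in 11 of 12 lines (median ratio 0.811, exact sign-flip test, adjusted p = 0.00203).

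Repeats stood out most near dense sites. Near members in repeats were methylated to 4.04% to 25.9%, 2.06 times the level of other near members in the median line (12 of 12 lines, exact sign-flip test, adjusted p = 0.000724). At 500 to 2000 bp the ratio was 1.10 (11 of 12 lines, exact sign-flip test, adjusted p = 0.00140). Far from dense sites, repeats were higher in 5 of 12 lines, with differences of −1.22 to 1.26 percentage points (exact sign-flip test, adjusted p = 0.993). The difference between far and near members was accordingly 2.92 times outside repeats and 1.23 times within them (medians, 12 of 12 lines each).

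The number of dense sites nearby went with lower methylation. Members with 0 dense sites under 500 bp away were methylated to 14.6% in the median line, those with 1 to 4 to 11.8%, those with 5 to 19 to 7.37%, and those with 20 or more to 2.19%. In the DNMT3A WT lines these levels were 38.2% and 38.8%, 26.2% and 28.6%, 17.1% and 17.8%, and 4.26% and 4.58%. Outside promoters, members with 1 to 4 dense neighbours were still methylated 3.17 times as much as those with 20 or more (median, 12 of 12 lines, exact sign-flip test, adjusted p = 0.000724). Outside promoters this order held in 12 of 12 lines. In promoters it held in 11, and DNMT3B WT set b replicate 2 had 2.66% with 1 to 4 dense sites and 2.79% with 5 to 19.

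**Figure D4:**
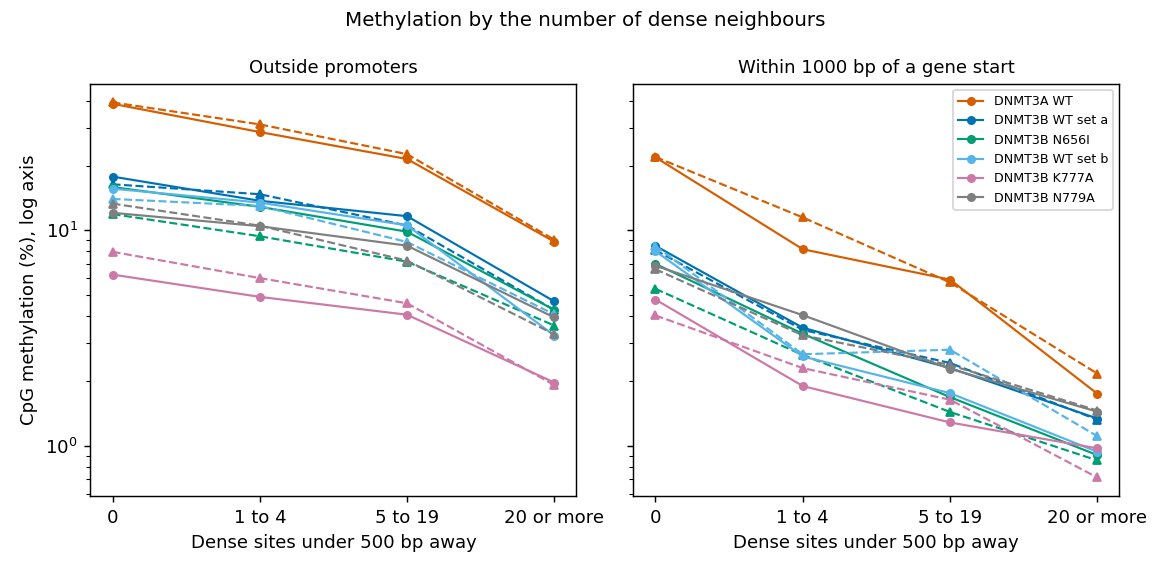
CpG methylation (%, y axis, log scale) of intermediate-density sites by the number of dense sites under 500 bp away (x axis), outside promoters (left) and within 1000 bp of a gene start (right), in the 12 lines (circles and solid lines for replicate 1, triangles and dashed lines for replicate 2). Outside promoters the DNMT3A WT means fall from 39.01% to 8.96%, and in promoters from 21.9% to 1.95%.

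The first comparison asked how DNMT3A and DNMT3B differ at these sites. Methylation was 31.5% ± 1.19 in DNMT3A WT and 14.2% ± 0.546 in DNMT3B WT set a (SD, n = 2 lines). The gap of 17.3 percentage points exceeded the spread within the groups, and the lines did not overlap (two-sided exact permutation test, p = 0.33, which is the lowest value possible with 2 lines in each group). On the 498 members with 10 reads in all 4 lines it was 28.4% ± 0.735 and 14.1% ± 0.604. By distance, DNMT3A exceeded DNMT3B 1.96 times near dense sites, 2.34 times at 500 to 2000 bp and 2.29 times beyond. The lowest and highest ratios between single lines were 1.85 and 2.08 near and 2.18 and 2.41 far, so that they did not overlap. Within the near class the ratio was 1.84 to 1.94 in the bins under 300 bp. At 300 to 499 bp it was 2.39 (2.13 to 2.67 between single lines), so the lower near ratio was not that of the whole class. The gain from near to far was 25.4 ± 0.416 percentage points with DNMT3A and 10.1 ± 1.16 with DNMT3B (exact permutation test, p = 0.33). The separation at dense sites was small in comparison, with 2.13% and 2.78% against 1.54% and 1.79%.

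In N656I, methylation was 11.3% ± 2.31, compared with 14.2% ± 0.546 in WT set a. The lines did not overlap with those of WT (exact permutation test, p = 0.33), but N656I replicate 1, at 12.96%, was within 1 percentage point of WT replicate 2. Against WT set b (12.5% ± 1.01) the N656I lines did not separate. On 831 shared members the levels were 10.6% ± 2.60 and 14.04% ± 1.02. The ratio of N656I to WT was 0.737 near dense sites, 0.818 at 500 to 2000 bp and 0.814 beyond. The gain from near to far overlapped between the groups, at 10.1 and 7.44 percentage points against 10.9 and 9.24 (exact permutation test, p = 0.67).

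K777A had the largest shortfall. Its lines had 5.57% ± 1.26, compared with 12.5% ± 1.01 in WT set b, with no overlap of the lines (exact permutation test, p = 0.33). The ratio to WT was 0.443 near dense sites, 0.465 at 500 to 2000 bp and 0.484 beyond, and the ranges of the single lines overlapped between the classes. The gain from near to far was 3.84 and 4.94 percentage points against 9.24 and 7.83, but as a fold it was not smaller, with far 2.48 and 2.56 times above near against 2.38 and 2.24 times in WT set b. The difference in gain of −4.15 percentage points was −1.67 with a minimum of 20 reads per site, −2.02 with reads weighted equally and −2.39 on shared sites. On the 308 members with 10 reads in all 4 lines, the levels were 6.19% ± 0.858 and 10.8% ± 0.489, a difference of −4.63 percentage points compared with −6.88 over all sites.

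N779A had 10.4% ± 0.179, 2.02 percentage points below WT set b, again without overlap (exact permutation test, p = 0.33). Against WT set a the difference was −3.81 percentage points. Its ratio to WT was 0.866 near, 0.905 at 500 to 2000 bp and 0.851 far, and the gain from near to far overlapped with that of WT (exact permutation test, p = 0.67). On 184 shared members the levels were 8.32% ± 0.314 and 9.86% ± 0.769.

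The base after the CG, the +1 base, went with different levels in the lines of different enzymes. It was read on the forward strand, while the reads of both strands were summed, so a site also holds methylation of the opposite strand with its own +1 base. The share of a +1 base is the mean methylation before that base as a part of the sum of the 4 means, and 25% would be equal. In DNMT3A WT, CGA had a share of 24.02% ± 0.322, CGC of 25.2% ± 0.203, CGG of 23.95% ± 0.302 and CGT of 26.8% ± 0.182 (SD of 2 lines). The DNMT3B WT set a lines had, in this order, 30.9% ± 0.282, 16.1% ± 0.107, 30.04% ± 1.08 and 23.05% ± 0.687. DNMT3A was thus close to even, and WT DNMT3B was low at CGC.

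K777A replaces a lysine that faces the +1 base in the enzyme bound to DNA. It had a share of 36.3% ± 0.719 for T and of 14.7% ± 0.956 for G, compared with 23.6% ± 0.427 and 28.7% ± 0.513 in WT set b. T exceeded G by 20.5 and 22.8 percentage points in the K777A lines and lay below G by 4.42 and 5.75 in the WT lines. In level, K777A had 8.40% at T and 3.37% at G, and the WT set b lines had 11.9% and 14.4%.

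N779A had a lower share of A (24.2% ± 0.328, compared with 31.8% ± 0.000721 in WT set b) and a higher share of T (28.6% ± 0.396). In N656I, T minus G was −12.6 ± 0.0184 percentage points, against −7.00 ± 1.76 in WT set a. G exceeded A in both N656I lines, as it did in replicate 2 but not in replicate 1 of WT set a. In each of these comparisons the lines of the 2 groups did not overlap.

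In group means, T minus G kept its sign in each distance class in all 6 groups, while the order of the WT sets changed. The difference was 1.92, 1.02 and 1.54 percentage points near, at 500 to 2000 bp and far in DNMT3A WT, and 14.2, 23.6 and 21.5 in K777A. It was −7.08, −10.2 and −8.01 in DNMT3B WT set a, and −7.51, −6.47 and −6.10 in set b. In N656I it was −13.2, −14.5 and −13.9, and in N779A −3.32, −5.93 and −2.02. Within each +1 base, far exceeded near in 12 of 12 lines, by 2.38 times at A, 2.62 at C, 2.36 at G and 2.64 at T (medians, exact sign-flip test, adjusted p = 0.000724).

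**Figure D5:**
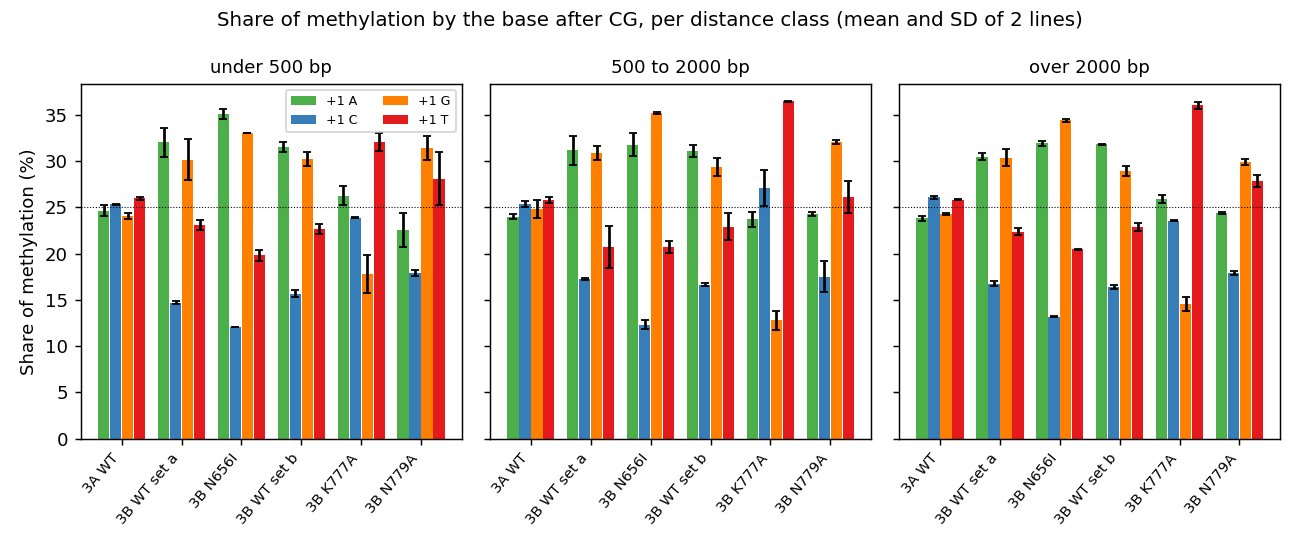
Share of methylation (%, y axis) by +1 base in the 6 groups (x axis), for members under 500 bp, at 500 to 2000 bp and over 2000 bp from a dense site. Bars are means and error bars SD of 2 lines, and the dotted line marks an even 25%. DNMT3A WT lies near 25% for all 4 bases, and in K777A the T share exceeds the G share in each panel.

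To compare single regions, reads were summed in 1-kb tiles, with the members of a tile kept apart from its sparse and dense sites, and the log2 odds of methylation were tested with limma (Benjamini-Hochberg over all units, threshold 0.05). For DNMT3A WT against DNMT3B WT set a, 0 of 4343 units of intermediate density passed, against a background of 0% of all 20044 units. At an unadjusted p of 0.05, 718 did (16.5%), beside 15% of all units. With edgeR 1 was called, 0.023% beside 0.02% of all units. The log2 odds were higher with DNMT3A in 81.2% of the units, with a median change of 1.81. It was 1.06, 2.02 and 2.45 in the 3 classes from near to far, beside 2.76 for sparse and −0.20 for dense units. The dense median had the opposite sign to the dense levels by site, 2.45% in DNMT3A WT and 1.66% in WT set a. With 0.5 added to both counts, the log2 odds of a unit without methylated reads fall as its reads rise. The part of depth in these medians was not tested. Leaving out DNMT3B WT set a replicate 1 raised the count to 1818, of which 1757 were higher with DNMT3A. This was 29.1% of the units of intermediate density, beside 30% of all units under the same setting, so it is not a result about the members. The count then rested on WT replicate 2, the line that stands apart, as the only WT line, whose spread was taken from the DNMT3A lines. Without replicate 2 it was 0.

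For N656I, 0 of 5169 units passed with limma, against a background of 0% of all 22931 units (165 or 3.19% at an unadjusted p of 0.05, beside 4.01% of all units, and edgeR called 0), and the median change was 0.10. For K777A, 2 of 8043 units were lower than in WT set b, against a background of 0.00842% of all 35613 units, and the median change was −0.53 (621 units or 7.72% at an unadjusted p of 0.05, the same share as over all units). For N779A, 2 of 4569 units were lower, against a background of 0.00903% of all 22145 units, and the median change was 0.02 (188 or 4.11% at an unadjusted p of 0.05, beside 5.18% of all units). The medians of sparse and dense units were 0.26 and −0.42 for N656I, −0.74 and −0.32 for K777A, and 0.02 and 0.30 for N779A. Of the units of intermediate density, 52.4% lay above WT for N656I, 34.9% for K777A and 50.5% for N779A. For N656I and N779A the medians of 0.10 and 0.02 did not share the direction of the level differences by site, which were negative. For K777A the median was below 0 in all 3 classes. The K777A lines had more reads than the WT set b lines, in promoter members 533875 and 707912 against 281430 and 295180. The log2 odds of a unit without methylated reads fall as its reads rise, and the part of depth here was not tested.

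In K777A, the unit at chr16:91834001-91835000 overlaps Atp5o, which encodes a subunit of ATP synthase, and Itsn1, an endocytic adaptor gene. It was methylated in 3 of 28 and 7 of 47 reads of the K777A lines (10.7% and 14.9%) and in 22 of 23 and 20 of 25 reads of the WT lines (95.7% and 80.0%; log2 odds change −5.55, SE 0.53, adjusted p = 0.00306, limma). The unit at chr17:27117001-27118000 in Itpr3, an IP3 receptor gene, had 11.7% and 13.5% in K777A and 75.8% and 81.8% in WT (log2 odds change −4.55, SE 0.50, adjusted p = 0.00525, limma). The former lay 4111 bp from dense sites in the median member and the latter 202 bp.

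In N779A, the unit at chr10:8725001-8726000 in Sash1 was methylated in 4 of 65 and 9 of 45 reads, and in 24 of 24 and 12 of 20 reads in WT (log2 odds change −5.94, SE 0.97, adjusted p = 0.0315, limma). The unit at chr9:66138001-66139000 in Ciao2a, a gene of iron-sulfur protein assembly, had 50.0% and 26.1%, and 97.2% and 78.3% in WT (log2 odds change −3.89, SE 0.57, adjusted p = 0.0118, limma). In these 4 units the lines of the 2 groups did not overlap, but edgeR called none of them, and they rest on 20 to 89 reads a line. With any 1 line left out, the K777A units were no longer called, and the N779A count moved with the line left out.

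Lastly, the members in promoters (1000 bp to each side of the start) of 23 germline genes and 15 housekeeping genes were summed over all covered reads, as most lacked sites with 10 reads. Germline genes are silenced by promoter methylation in somatic cells, and housekeeping genes are active in all cells. The germline promoters held 411 members, 386 of them near dense sites, and the housekeeping promoters held 204, of which 193 were near.

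In the germline promoters 25.8% and 21.98% of reads were methylated in the DNMT3A WT lines, 13.4% and 15.6% in DNMT3B WT set a, and 8.46% and 9.88% in N656I. The values were 7.93% and 4.54% in WT set b, 3.12% and 2.42% in K777A, and 5.04% and 7.85% in N779A. By this measure the DNMT3A lines were highest and the K777A lines lowest, and N779A overlapped WT set b. By sites with 10 reads, WT set b replicate 1 was lowest (0.833%), below K777A (1.52% and 1.11%). Over all promoters the place of K777A depended on the measure. By all covered reads, WT set b had 2.98% and 2.97% and N656I 2.59% and 2.13%, below K777A, whereas by sites with 10 reads the K777A lines were lowest, at 1.57% and 1.502%. In the housekeeping promoters 0% to 3.10% of reads were methylated, with 13 methylated reads at most in a line, and over all promoters 2.13% to 7.75%. The median line had 8.19% for germline, 0.351% for housekeeping and 3.34% for all promoters, and each line was higher in the germline than in the housekeeping list. Both K777A lines were lower in the germline promoters than over all promoters, where they had 3.37% and 3.58%, and the other 10 lines were higher. By sites with 10 reads, of which the germline list had 5 to 33 a line, both WT set b lines (0.833% and 1.52%, against 2.34% and 2.91% over all promoters) and N779A replicate 1 (1.67% against 2.77%) were also lower in the germline list.

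Of the germline genes with the most reads, Sycp3, a synaptonemal complex gene, had 14.1% and 25.5% in DNMT3A WT, and 0% to 11.3% in the other lines. Sohlh2, a germ cell transcription factor gene, had 44.7% and 24.5% in DNMT3A WT and 0% to 29.4% elsewhere. Hormad1, which encodes a protein of the meiotic chromosome axis, was methylated in 34 of 90 and 4 of 50 reads of the DNMT3A WT lines, and Piwil2, of the piRNA pathway, in 11 of 66 and 0 of 20. These 4 genes had 2 to 156 reads a line. In Sycp3 both DNMT3A lines lay above all others, and in the other 3 genes the lines overlapped. Among housekeeping genes, Gapdh (glycolysis) and Polr2a (RNA polymerase II) had no methylated read in any line, with up to 55 and 58 reads a line and none in some. Psmb2 (proteasome) reached 8.57% and Rplp0 (ribosome) 14.8%.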

How the data were processed

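The deposited table holds, for each CpG site and line, the methylated reads and all reads as counts, which the authors made from eRRBS reads with Bismark on mm10, summing both strands. The submitters' processing notes name cutadapt 1.12, Bismark 0.18.1 and Bowtie 1.2. No column was left unmapped. Members were found from the positions in the table. Their choice, the gene lists and the tests were made with earlier results of these data known, and windows overlapping UTRs or on chromosome 18 were not printed, the former as a choice made after the data were seen.

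Levels used sites with at least 10 reads. Groups of 2 lines were compared with exact permutation tests, contrasts within lines with exact sign-flip tests over 12 lines, both two-sided, with Benjamini-Hochberg adjustment over 43 contrasts or 14 steps. The labels give biological replicates, and the paper describes them as independently derived lines. The 12 lines come from 1 host line and carry different enzymes. The sign-flip test gives its lowest p-value whenever all lines agree in sign, whatever their spread. The permutation test does so whenever the groups do not overlap. The limma p-values rest on the spread between lines. Tiles of 1 kb, divided by density class, with at least 20 reads on at least 3 sites in all 4 lines, were tested by limma 3.58.1 (R 4.3.3) on log2 odds with 0.5 added to both counts, with edgeR 4.0.16 as the alternative. In each comparison, among units called whose lines did not overlap, up to 3 per direction were named, and the 4 genes with the most reads from each list. Genes came from GENCODE M21. The scripts ran in Python 3.11.15 (numpy 2.4.6, pandas 2.3.3, scipy 1.17.1) and were tested on simulated data. Alternatives were other read minima, 2-kb tiles, sites without CCGG, the other WT set, a single fit of all lines, the replicate block and each line left out. After the data were seen, averages over every covered site and with equal weight for each density were added.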

Additional observations from a re-analysis of the deposited data

Results flagged for a closer look

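Both lines of one group moved one way and both lines of its control the other in 4 contrasts, and no test of these differences was run. Methylation at CGT minus that at CGG was 3.98 and 3.30 percentage points in DNMT3A WT and −3.38 and −4.55 in DNMT3B WT set a, a difference of 7.60. CGA minus CGC was −0.972 and −1.98 in DNMT3A WT and 8.77 and 8.09 in DNMT3B WT set a, a difference of −9.91. CGT minus CGG was 3.98 and 6.09 in K777A and −2.35 and −2.72 in DNMT3B WT set b, a difference of 7.57. Over 2000 bp from dense sites, repeats minus other sites was −1.09 and −0.0996 in DNMT3A WT and 0.461 and 1.26 in DNMT3B WT set a, a difference of −1.46. In DNMT3B WT set b it was −1.22 and −0.248, with the sign of DNMT3A WT, so the opposite signs depend on the WT set.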

How the results depend on the processing

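The contrasts within lines between density classes and between distance classes kept their direction and side of the threshold under the alternatives run, with far minus near at 9.21 to 11.6 percentage points. The level differences between groups kept their direction, and since 2 lines against 2 cannot pass the threshold their p-values say nothing of stability. The DNMT3A difference ranged from 14.3 to 19.1, and against the other WT set those of N656I, K777A and N779A were −1.12, −8.67 and −3.81. Leaving out single lines gave −4.54 (without N656I replicate 1) to −1.28 (without N656I replicate 2) for the N656I level difference and −2.73 to −1.31 (without WT set b replicate 1) for N779A. The difference in the gain from near to far reversed for N656I as a log2 ratio (0.14) and against the other WT set (0.215), and for K777A as a log2 ratio (0.12), which measures a fold and not percentage points. Without the log2 ratio, this difference ranged from −5.68 to −1.67 for K777A (−1.67 with a minimum of 20 reads per site) and from −2.90 to −0.203 for N779A (−0.203 without N779A replicate 1), beside −4.15 and −1.37. Depth limits what single sites and tiles can show.

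The counts of tiles called moved. For DNMT3A WT, centring each line gave 6 (all lower), edgeR 1, and single lines left out 0 to 1818, the most without DNMT3B WT set a replicate 1, with 25 and 22 without DNMT3A WT replicates 1 and 2. For N656I, single lines left out gave 3 (without WT replicate 2) to 56 (without WT replicate 1), with 20 and 29 without N656I replicates 1 and 2. For K777A, the minimum of 40 reads, edgeR and the other WT set gave 0. The fit of all lines, 2-kb tiles and sites without CCGG each gave 1. In this order that was 0.0124%, 0.00884% and 0.0163% of the units of intermediate density. Of all units, 0.00562%, 0.00502% and 0.0035% were called. For N779A, minima of 10 and 40 reads, edgeR, the fit of all lines, 2-kb tiles and the other WT set gave 0. Sites without CCGG gave 1, 0.0298% of the units of intermediate density beside 0.00555% of all units. A lone line was assumed to vary like the other group. The cause was not tested.

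With the replicate number as a block, 20, 24, 28 and 6 units were called for DNMT3A WT, N656I, K777A and N779A. In this order they were 0.461%, 0.464%, 0.348% and 0.131% of the units of intermediate density. Of all units, 0.274%, 0.323%, 0.329% and 0.0542% were called. Lines with the same number did not deviate together (correlations 0.0118, 0.0514, −0.00739 and 0.00946), so the numbers give no pairing.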
